A study of Homo sapiens with 6 samples.

Results

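The genes described here are 10 members of the BCL2 family, the proteins that set whether a cell's mitochondria release the factors that start apoptosis. They were chosen by symbol: 3 anti-apoptotic members (BCL2, BCL2L1 and MCL1), 5 BH3-only members (BCL2L11, BBC3, PMAIP1, BID and BAD) and 2 effectors (BAX and BAK1). All 10 had a row among the 17081 genes of the count table, and all 10 were among the 13382 genes that passed the filter on low counts. The samples were pieces of tumours that DMS114, a human cell line established from small cell lung cancer, formed in a model of invasion along the sciatic nerve. The proximal group held 3 libraries from the proximal invaded region and the distal group 3 from the distal one. The labels give no drug, no genetic change and no host species, sex or age, and do not tell if each replicate was a separate animal, so the spread behind each p-value is that of these pieces and could be technical.

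Anti-apoptotic members hold the effectors and the BH3-only members in a groove on their surface. BH3-only members are made or activated under stress, fill that groove or engage the effectors, and so free BAX and BAK1 to form pores in the outer mitochondrial membrane, which lets cytochrome c reach APAF1 and the caspases. Small cell lung cancer is known for tumours with high BCL2, and drugs that fill the groove of BCL2, BCL-XL or MCL1 have been studied in it.

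The feature that unites all 3 classes is the BH3 segment, and its coding bases are shown because they are what places a gene in the family whatever its role. The 27 bases below code for the core of that segment in 1 principal GENCODE transcript of each gene. Capitals mark the codon of the leucine that opens this core and, after 3 codons, the pair of codons that ends in the aspartate codon.
BCL2: CTCcgccaggccGGCGACgacttctcc
BCL2L1: CTGagggaggcaGGCGACgagtttgaa
MCL1: TTAcgacgggttGGGGATggcgtgcag
BCL2L11: TTGcggcgtattGGAGACgagtttaac
BBC3: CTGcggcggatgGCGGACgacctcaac
PMAIP1: CTCaggagatttGGAGACaaactgaac
BID: CTCgcccaggtcGGGGACagcatggac
BAD: CTCcggaggatgAGTGACgagtttgtg
BAX: CTCaagcgcatcGGGGACgaactggac
BAK1: CTCgccatcatcGGGGACgacatcaac

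The pair of codons opened with GGN (N for any base) in 8 of the 10 genes, with GCG in BBC3 and with AGT in BAD, and it closed with GAC in 9 genes and with GAT in MCL1. Each set of 27 bases lay within 1 coding exon. On GRCh38 the anti-apoptotic segments lie at chr18:63318352-63318378 (BCL2, minus strand, exon 2), chr20:31721925-31721951 (BCL2L1, minus strand, exon 2) and chr1:150578868-150578894 (MCL1, minus strand, exon 1). Those of the BH3-only genes lie at chr2:111150103-111150129 (BCL2L11, plus strand, exon 4), chr19:47226582-47226608 (BBC3, minus strand, exon 3), chr18:59902673-59902699 (PMAIP1, plus strand, exon 2), chr22:17739418-17739444 (BID, minus strand, exon 4) and chr11:64271625-64271651 (BAD, minus strand, exon 3). Those of the effectors lie at chr19:48955787-48955813 (BAX, plus strand, exon 3) and chr6:33575390-33575416 (BAK1, minus strand, exon 4).

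The libraries held 16171106 to 26116191 counts, distal 3 the fewest, and no gene of the table passed the test between the regions. YAP1, the marker of one small cell lung cancer subtype, had 167 to 187 CPM (counts scaled to library size) in the 6 libraries, while POU2F3, the marker of another subtype, had at most 0.247 CPM. NEUROD1 had at most 0.618 CPM except in distal 3, at 6.47 CPM. Synaptophysin (SYP), a neuroendocrine marker, had 56.9 to 63.9 CPM. Distal 3 and proximal 3 stood apart in markers of skeletal muscle, of which all 15 listed had counts. Their summed level was 2427 CPM in distal 3 and 348 CPM in proximal 3, against 4.36 to 34.0 CPM in the other 4 libraries. The summed level of 8 Schwann cell markers was 63.4 to 158 CPM in proximal and 75.7 to 124 CPM in distal libraries, with S100B and MAG at no more than 3 counts in any library. The 6 endothelial markers summed to at most 2.50 CPM and the 7 immune markers in the table to at most 5.56 CPM. GRCh38 is the only build named and the host species is not given. Low sums of such markers therefore do not show that host cells of these types were few. The 7 fibroblast markers, which the tumour cells may express too, summed to 4538 to 6134 CPM. Most of this sum was COL3A1, at 3725 to 5104 CPM, followed by DCN (314 to 584) and LUM (297 to 567 CPM). COL1A1, COL1A2, PDGFRA and PDGFRB each had at most 62.2 CPM. In bulk tissue, fewer cells of a type and less RNA per cell cannot be told apart.

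Among the 10 genes, MCL1 RNA was by far the most abundant and BCL2 RNA the least. Levels of different genes are compared here as CPM per kilobase of the gene's exons, all GENCODE exons of the gene merged. MCL1, a short-lived anti-apoptotic protein, had 94.8 to 113 CPM per kilobase over the 6 libraries and ranked first in each. BCL2, the founding member, had 0.0824 to 0.247 CPM per kilobase and ranked last in each. The mean level of MCL1 lay above 98.1% and that of BCL2 above 3.61% of the 13200 tested genes with an exon length. Between these, BAK1 (17.5 to 22.4), BAD (12.8 to 15.3), BAX (10.7 to 11.7) and BCL2L1 (6.98 to 8.89 CPM per kilobase) followed in that order in every library. PMAIP1 (2.49 to 4.63) and BBC3 (2.57 to 3.54) exchanged places between libraries, as did BCL2L11 (1.74 to 2.38) and BID (1.26 to 2.25), so neighbours within these pairs did not differ beyond their spread.

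**Figure D1:**
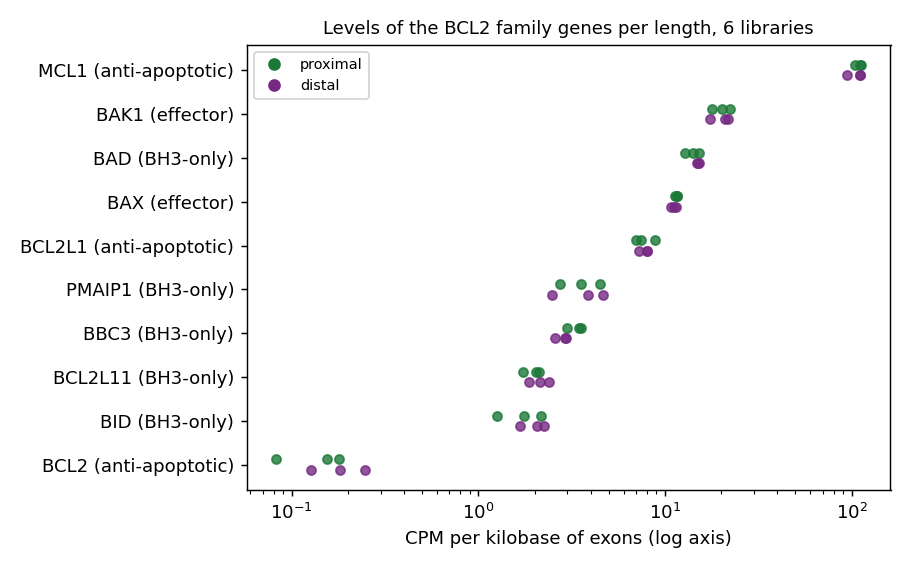
Level of each BCL2 family gene in CPM per kilobase of exons (log axis), 1 point per library, 3 proximal (green) and 3 distal (purple). MCL1 lies at 94.8 to 113 and BCL2 at 0.0824 to 0.247, and the points of both regions lie on top of each other for most genes.

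Of the RNA of the 3 anti-apoptotic genes per kilobase, MCL1 made up 92.1% to 94.0%, BCL2L1 5.91% to 7.77% and BCL2 0.0739% to 0.208%, with the lowest MCL1 share in distal 3. The anti-apoptotic genes together made up 66.0% to 68.0% of the RNA of the 10 genes, the BH3-only genes 12.9% to 15.9% and the effectors 17.8% to 19.1%. These shares rest on RNA and gene models, not on protein. They cover the chosen members only and leave out BCL2L2, an anti-apoptotic relative with 32.7 to 39.4 CPM. With the length of 1 principal transcript in place of all exons, a setting chosen after seeing the data, MCL1 remained first and BCL2 last of the 10 in every library, but the shares were 53.3% to 56.4% anti-apoptotic, 18.4% to 22.4% BH3-only and 24.0% to 25.2% effector. The level of BCL2 was then 0.302 to 0.906 CPM per kilobase. The middle of the order depended on that length: BAX was second, at 35.0 to 38.1, ahead of BAD (23.5 to 28.1) and BAK1 (18.1 to 23.2), and BCL2L11, at 7.63 to 10.4 CPM per kilobase, took rank 5 or 6, beside BCL2L1 (8.86 to 11.3).

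Among the anti-apoptotic genes, MCL1 had 485, 455 and 492 CPM in proximal 1 to 3 and 484, 484 and 414 CPM in distal 1 to 3. Distal 3 was the lowest library and the groups overlapped. Means were 477 ± 19.9 CPM proximally and 461 ± 40.2 CPM distally (SD, n = 3 each), which is a log2 fold change of -0.05 (SE 0.09, 95% interval -0.25 to 0.15). BCL2L1, which encodes BCL-XL, had 23.1, 24.8 and 29.5 CPM in the proximal libraries and 26.5, 24.0 and 26.5 CPM in the distal ones. Its distal values lay within the range of the proximal values, and the log2 fold change was -0.01 (SE 0.12, 95% interval -0.27 to 0.26).

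BCL2 was read from 47, 21 and 47 counts in proximal 1 to 3 and from 66, 36 and 35 in distal 1 to 3. These are 1.82, 0.97 and 2.11 CPM proximally and 2.91, 1.48 and 2.14 CPM distally. The exact 95% Poisson interval of distal 1, the highest library, was 2.25 to 3.70 CPM and that of proximal 2, the lowest, 0.60 to 1.48 CPM, so these libraries differed by more than counting error, which is all that such intervals cover. The groups overlapped. Means were 1.63 ± 0.593 and 2.18 ± 0.713 CPM (SD, n = 3 each), and the log2 fold change of 0.41 (SE 0.40) had an interval from -0.48 to 1.30, which leaves room for a difference of up to 2.46-fold. Without distal 1 it was 0.14, and without proximal 2 it was 0.15.

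BBC3 (PUMA, a target of p53) was the one member whose groups did not overlap. It had 9.44, 11.3 and 11.1 CPM in proximal 1 to 3 and 9.21, 9.35 and 8.18 CPM in distal 1 to 3, so that the lowest proximal and the highest distal library lay next to each other. Means were 10.6 ± 0.997 and 8.91 ± 0.638 CPM (SD, n = 3 each). The log2 fold change was -0.25 (SE 0.16, 95% interval -0.60 to 0.11), with an adjusted p of 0.9997 (unadjusted 0.155) by edgeR's quasi-likelihood test. Among all genes tested the groups did not overlap for 6.28% in either direction, 3.2% with distal higher and 3.09% with distal lower, so 1 member of 10 is near the background.

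BCL2L11 (BIM, which binds all anti-apoptotic members) had 11.6, 14.1 and 13.5 CPM proximally and 15.8, 12.4 and 14.2 CPM distally. Distal 1 was highest, proximal 1 lowest, and the log2 fold change was 0.11 (SE 0.15, 95% interval -0.23 to 0.46), or 0.02 without distal 1 and 0.03 without proximal 1. BAD, whose binding partners are BCL2 and BCL-XL and which phosphorylation keeps inactive, had 26.1, 24.1 and 21.9 CPM proximally and 25.5, 25.5 and 26.1 CPM distally. The distal values were nearly equal and proximal 1 lay among them. The log2 fold change was 0.10 (SE 0.11, 95% interval -0.14 to 0.34), or 0.04 without proximal 3.

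BID (cleaved by caspase-8, which links death receptors to mitochondria) had 7.82, 9.60 and 5.61 CPM proximally and 9.12, 7.42 and 10.01 CPM distally. Proximal 3 was the lowest library, and its Poisson interval of 4.67 to 6.69 CPM lay below those of proximal 2, with its lower bound at 8.34, and of proximal 1 (6.77 to 8.97), distal 1 (7.92 to 10.5) and distal 3 (8.54 to 11.7 CPM). The interval of proximal 3 overlapped that of distal 2 (6.37 to 8.58 CPM). The log2 fold change of BID was 0.20 (SE 0.23, 95% interval -0.30 to 0.70), or 0.02 without proximal 3.

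PMAIP1 (NOXA, which binds MCL1 and is induced by p53 and by stress) varied most among the members of at least 5 CPM. It had 10.1, 6.14 and 7.95 CPM proximally and 10.4, 8.61 and 5.56 CPM distally. Both groups spanned nearly the same range, with replicate 1 highest in each, and the Poisson intervals of distal 3 (4.47 to 6.82 CPM) and distal 1 (9.07 to 11.8 CPM) were apart. Means were 8.05 ± 1.96 and 8.17 ± 2.43 CPM (SD, n = 3 each), which is a log2 fold change of 0.03 (SE 0.26, 95% interval -0.56 to 0.61).

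Of the effectors, which form the pores, BAX had 29.3, 30.1 and 30.2 CPM proximally and 28.8, 29.7 and 27.7 CPM distally. Its groups overlapped narrowly, at a log2 fold change of -0.05 (SE 0.09, 95% interval -0.26 to 0.15). BAK1 had 44.7, 39.7 and 49.6 CPM proximally and 47.9, 46.1 and 38.7 CPM distally. Proximal 3 was its highest and distal 3 its lowest library, and the log2 fold change was -0.01 (SE 0.12, 95% interval -0.28 to 0.26).

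**Figure D2:**
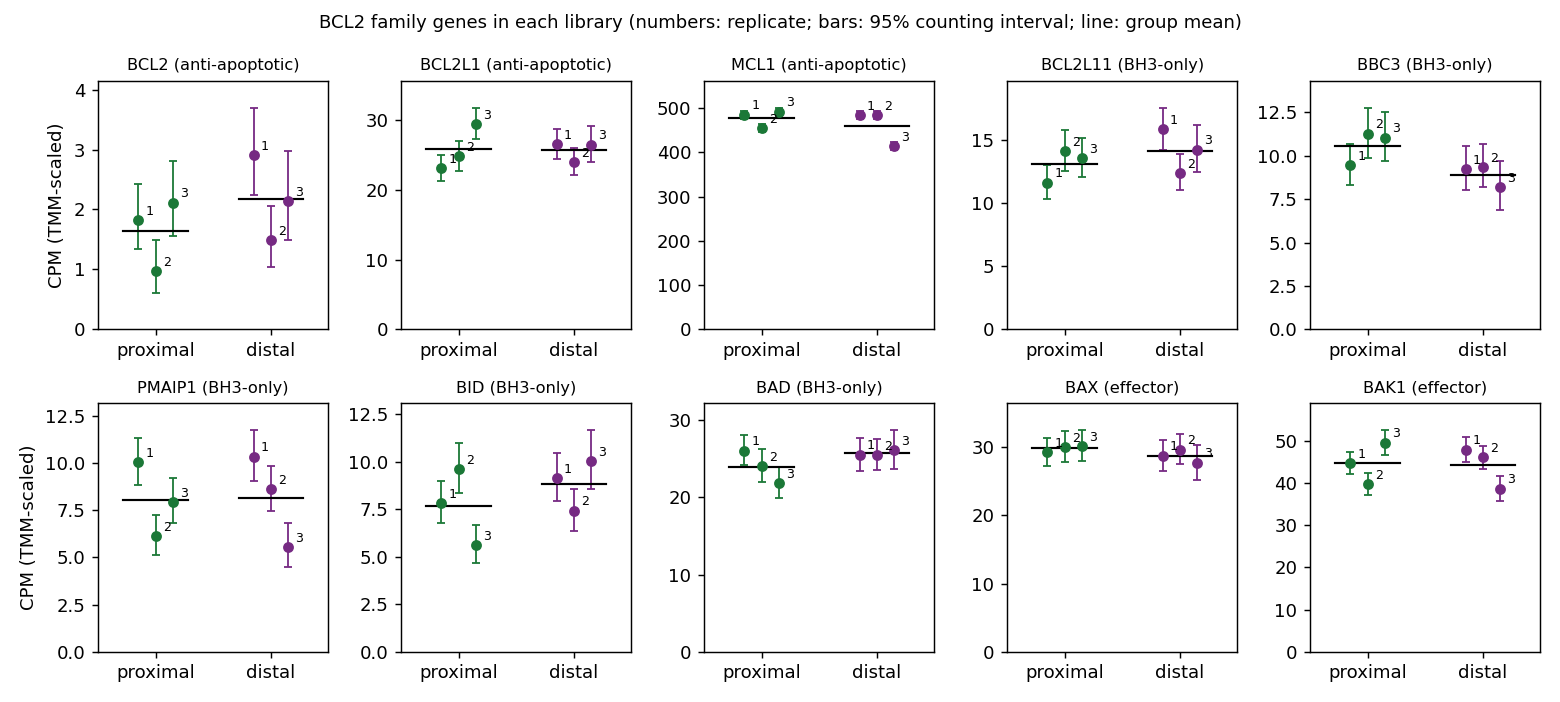
CPM (TMM-scaled) of each BCL2 family gene in the 3 proximal (green) and 3 distal (purple) libraries, each point labelled with its replicate number, with bars for the exact 95% Poisson interval and a line for the group mean. The groups overlap for all genes but BBC3, whose distal values of 8.18 to 9.35 CPM lie just below the proximal ones of 9.44 to 11.3 CPM.

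The comparison asks whether survival or death genes of the tumour differ along the invaded nerve, and no member passed the test. Of the 10 members, the quasi-likelihood test of edgeR, Benjamini-Hochberg adjusted over all 13382 genes, called 0 (background 0%). None had an unadjusted p under 0.05 in edgeR, DESeq2 or limma-voom, against 1.33% of all genes in edgeR, and the lowest, that of BBC3, was 0.155. For 5 of 10 members the log2 fold change was above 0, as for 51.6% of all genes, and for 5 it was below. The median was 0.01 over the members and 0.00 over all genes tested, and the median size of the difference, without its sign, was 0.08 over the members and 0.09 over all genes. The 95% interval lay within 2-fold in either direction for 9 of the 10 members, BCL2 being the exception, and for 84% of all genes tested. For MCL1 it ran from 0.839-fold to 1.11-fold, for BAX from 0.833-fold to 1.11-fold and for BBC3 from 0.659-fold to 1.08-fold. With 1 library left out at a time, the direction turned in at least 1 fit for MCL1, BCL2L1, PMAIP1 and BAK1.

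**Figure D3:**
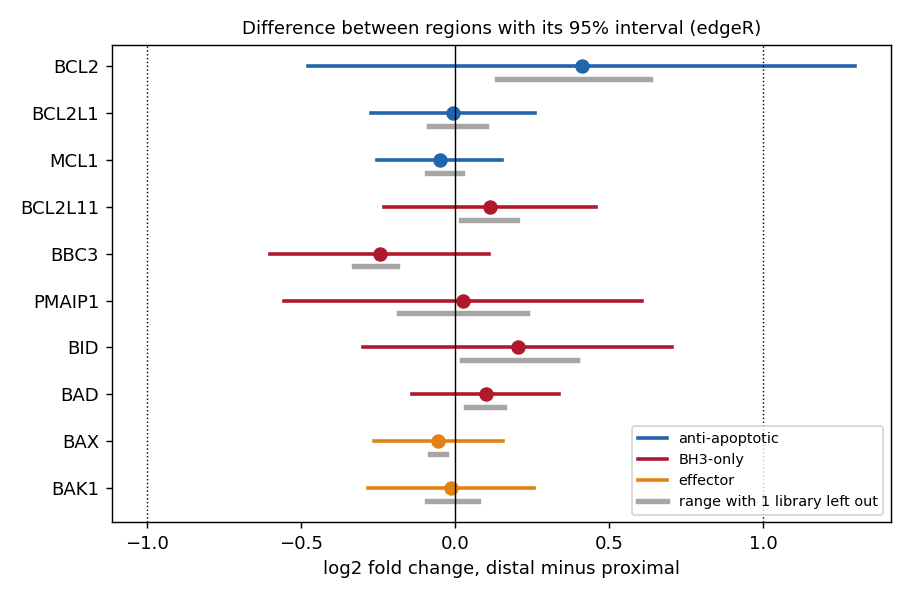
Log2 fold change (distal minus proximal) of each member from edgeR as a point with its 95% interval, coloured by class, with the range over the fits that leave out 1 library in grey and dotted lines at 2-fold. Every interval includes 0, and only that of BCL2, from -0.48 to 1.30, passes a dotted line.

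The members differed among themselves in how much they varied between libraries. The coefficient of variation (SD over mean) of the CPM over all 6 libraries ran from 3.15% for BAX to 34.5% for BCL2. BAX lay under the 3.92% that counting alone would give at its mean count, and only 0.963% of the 4467 tested genes within 2-fold of its mean level had a lower value. BAD, at 6.60%, was also steady for its level, where the median gene had 10.1%. PMAIP1, at 24.4% against a median of 16.0%, and BID, at 19.9% against 15.9%, varied more than the median gene of their level, as did BCL2 (34.5% against 29.7%) and BAK1 (9.91% against 8.86%). The other 4 members lay under the median of their level, MCL1 at 6.35% against 7.37%. Distal 3 was the lowest library for 5 of the 10 members, MCL1, BBC3, PMAIP1, BAX and BAK1, and the highest for BID and BAD. How often distal 3 was lowest or highest among all genes tested was not counted, so these counts have no background. Distal 3 was also the library with the fewest counts and the most muscle reads. Without distal 3 the log2 fold change was 0.02 for MCL1, -0.19 for BBC3, 0.23 for PMAIP1, -0.03 for BAX and 0.07 for BAK1. With the mean level of the muscle markers as a covariate, these values were -0.04, -0.24, 0.05, -0.05 and -0.01, and no member passed the test in either fit.

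**Figure D4:**
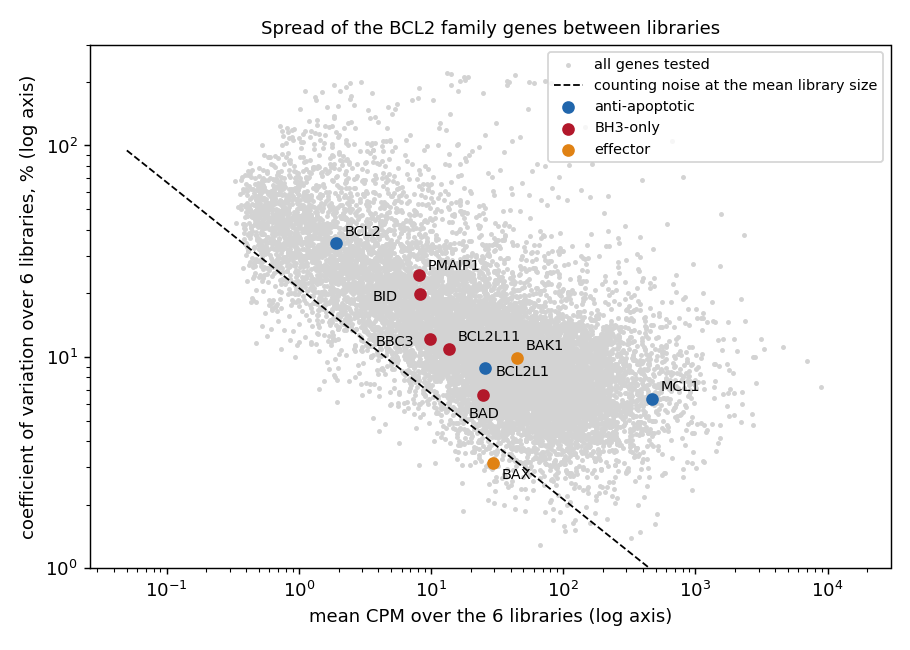
Coefficient of variation of the CPM over the 6 libraries against mean CPM (both log axes) for all genes tested (grey) and the BCL2 family genes (coloured by class), with counting noise as a dashed line. BAX, at 3.15%, lies at the lower edge of the genes of its level and PMAIP1, at 24.4%, in the upper part.

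PMAIP1 and BID, the most variable members of at least 5 CPM, were set beside the 10733 other genes of that level. Likeness was measured as the root mean square difference between log2 CPM profiles over the 6 libraries, each centred on its mean. The genes most like PMAIP1 were OSBPL8, a lipid transfer protein, at 0.06, NT5DC1 at 0.07 and BIRC2, an inhibitor of apoptosis, at 0.08, where the median gene was at 0.35. BIRC2 had 156, 107 and 119 CPM proximally and 172, 146 and 93.2 CPM distally. Its close relative BIRC3, named after its values were seen, had 292, 103 and 190 CPM proximally and 402, 268 and 64.3 CPM distally. All 3 genes were high in distal 1 and proximal 1 and low in proximal 2 and distal 3, a likeness by which BIRC2 and BIRC3 were picked. Among the other listed inhibitor of apoptosis genes, XIAP and NAIP were highest in distal 3. BIRC5 and BIRC6 were lowest in distal 3 but highest in proximal 2. Of the 10733 other genes, 63 (0.587%) had the same order of the libraries as PMAIP1. The genes most like BID were NT5C3A, a nucleotidase, at 0.07, IGFBP4, which binds insulin-like growth factors, at 0.08 and TMEM63C at 0.10, where the median was 0.31. The order of the libraries in these profiles crosses the regions, and the 6 points share their libraries and depth.

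Ratios between partners within a library, which do not depend on how libraries are scaled, did not separate the regions either. The log2 ratio of MCL1 to BAK1, an effector that MCL1 holds, was 3.44, 3.52 and 3.31 in the proximal and 3.34, 3.39 and 3.42 in the distal libraries, a range of 0.21. That of BCL2L1 to BAK1 had a range of 0.41 and group means of -0.79 ± 0.14 and -0.78 ± 0.21 (SD, n = 3 each). The ratio of BAX to BAK1 had means of -0.58 ± 0.16 and -0.62 ± 0.13. More variable were MCL1 to PMAIP1, from 5.55 in distal 1 to 6.22 in distal 3, and BBC3 to PMAIP1, from -0.17 in distal 1 to 0.88 in proximal 2. The ratio of BCL2 to BCL2L11 ran from -3.86 in proximal 2 to -2.44 in distal 1, with means of -3.07 ± 0.68 in proximal and -2.75 ± 0.31 in distal tumour. In all 8 ratios examined the values of the regions overlapped.

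Among 61 other genes of the pathway in 6 lists, 55 were tested and 0 were called by edgeR's quasi-likelihood test, with 29 higher and 26 lower values in distal. The groups did not overlap for 5 of the 55 (6.28% of all genes), and 1 had an unadjusted p under 0.05 (1.33% of all genes). Of the other BCL2 family genes, 9 were tested (5 higher, 4 lower, median 0.08). BCL2L13, a mitochondrial outer membrane protein, had 53.5, 64.2 and 53.1 CPM proximally and 50.6, 44.1 and 44.0 CPM distally, and its log2 fold change of -0.30 (SE 0.11) had an adjusted p of 0.9997 (unadjusted 0.0222) by edgeR. BCL2L15 was low, at 0.680 ± 0.228 and 1.25 ± 0.205 CPM (SD, n = 3 each). BNIP3, a hypoxia-induced mitophagy receptor, had 224 to 329 CPM, and BCL2L2 (BCL-w), an anti-apoptotic relative, had 32.7 to 39.4 CPM. HRK, BIK, BCL2A1 and BCL2L10 had at most 1.32, 0.427, 0.314 and 0.503 CPM. These 6 genes were named after their values were seen.

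Downstream of the mitochondria, 13 genes of the apoptosome, caspases and released factors were tested (10 higher, 3 lower, median 0.04). VDAC3, a channel of the outer membrane, had 499 ± 43.0 CPM proximally and 539 ± 21.3 CPM distally (SD, n = 3 each), at a log2 fold change of 0.11 (SE 0.09). Of 6 inhibitor of apoptosis genes (4 higher, 2 lower, median 0.09), BIRC6 had -0.16 (SE 0.09) and NAIP 0.14 (SE 0.17). Of 9 death receptor and signalling genes 2 had higher and 7 lower values (median -0.08), with TNFRSF10B, a TRAIL receptor, at -0.12 (SE 0.10) and the adaptor FADD at -0.08 (SE 0.08).

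Upstream, 11 regulators of BCL2 family RNA were tested (4 higher, 7 lower, median -0.02). FOXO3, a transcription factor known to raise BCL2L11 and BBC3, had 66.1 ± 10.9 CPM proximally and 55.3 ± 4.22 CPM distally (SD, n = 3 each), which is a log2 fold change of -0.26 (SE 0.13). DDIT3 (CHOP, a stress-induced factor) had 21.4 ± 4.62 and 25.6 ± 2.76 CPM, a log2 fold change of 0.25 (SE 0.16). Of 7 genes for the turnover of MCL1 and BIM protein 4 had higher and 3 lower values (median 0.02). HUWE1, a ubiquitin ligase of MCL1, was at -0.18 (SE 0.12) and USP9X, a deubiquitinase that stabilises MCL1, at -0.09 (SE 0.08). The adjusted p of each of these genes was 0.9997 by edgeR.

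Some counts may be affected by neighbours. Of the exon bases of BCL2L1, 43% overlap the antisense gene ABALON, of BAD 23.7% overlap GPR137 and of BCL2L11 10.9% overlap MIR4435-2HG, all on the other strand, and the strand setting of the counting is not given in the sources used here. BAK1 has the processed pseudogenes BAK1P1 and BAK1P2, which could take up some of its reads.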

How the data were processed

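Poly(A) RNA of 6 tumour samples was sequenced from TruSeq libraries on an Illumina NovaSeq X Plus, per the labels' protocols. The file that the authors deposited holds 1 column of raw, unscaled read counts for each library, by gene symbol. The submitters' processing notes name bcl2fastq, Trimmomatic 0.39, STAR 2.7.3a, DESeq2 and featureCounts 2.0.1, and GRCh38 as build. Which annotation and strand setting were used and how host reads were treated is not given in the sources used here, so host reads that align to human genes could be part of a count.

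Counts were analysed in R 4.3.3 with edgeR 4.0.16: the expression filter, TMM scaling and the robust quasi-likelihood test of distal against proximal, with Benjamini-Hochberg adjustment over all genes and a threshold of 0.05. The standard error is the size of the log2 fold change over the root of F. Spreads and profiles used log2(CPM + 0.1). Alternatives used DESeq2 1.42.0 and limma 3.58.1. The procedure was also run on simulated counts, drawn independently for each gene and library from mean levels and fitted dispersions. These counts hold no differences shared by many genes of a library, such as muscle content. The run therefore does not show how the test performs on these data. Gene models and coding bases came from GENCODE 29 (GRCh38); a script found the BH3 core as a leucine codon, any 3 codons, a glycine, alanine or serine codon and an aspartate codon. It found 1 match in 9 genes and 2 in BID, where the one with the BH3 context was taken.

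The members and lists were chosen with earlier results of these data known. The rule named all members, the genes called or else the 2 with the lowest p of each pathway list, and the 3 genes most like each of the 2 most variable members of at least 5 CPM. Results for some genes that the rule or the lists would have given are not reported here.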

Additional observations from a re-analysis of the deposited data

How the results depend on the processing

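No BCL2 family member was called under any of the 16 alternatives, and the adjusted p of the members lay between 0.999 and 1.00 over them. The number of genes called over the table was 0 in all of them except DESeq2, with 1, and the fit without distal 1, with 1 (with 1 library left out the range was 0 to 1), EDIL3 each time, which is no member. The direction was the same in 147 of 160 member values. It was the same in all 16 alternatives for BCL2, BCL2L11, BBC3, BAD and BAX, and turned in at least 1 for the other 5. With library totals alone BCL2L1 was at 0.00077 (log2). With 1 library left out, the range was -0.0853 to 0.0985 for BCL2L1, -0.0908 to 0.0206 for MCL1, -0.18 to 0.23 for PMAIP1, -0.0927 to 0.0732 for BAK1, 0.02 to 0.39 for BID, 0.14 to 0.63 for BCL2, 0.02 to 0.20 for BCL2L11, 0.04 to 0.16 for BAD, -0.08 to -0.03 for BAX and -0.33 to -0.19 for BBC3. BCL2L1 turned without proximal 3 (0.10) and without distal 2 (0.04), MCL1 without distal 3 (0.02), PMAIP1 without proximal 2 (-0.14), distal 1 (-0.18) and distal 2 (-0.01), and BAK1 without proximal 3 (0.07) and distal 3 (0.07). Without both proximal 3 and distal 3, the libraries with the most muscle reads, a fit chosen after seeing the data, BCL2L1 was at 0.0747, MCL1 at 0.0423, BID at -0.0748 and BAK1 at 0.15. The cause was not tested. With the replicate number as a block edgeR called 0 genes and 0 members. The correlations of deviations between proximal and distal libraries of the same number were 0.36, -0.11 and 0.18 for replicates 1, 2 and 3. Those between libraries of different numbers ran from -0.32 to 0.13. So few libraries cannot tell whether the numbers pair them. BCL2, at 21 to 66 counts per library, is the one member whose interval reaches past 2-fold. Its coefficient of variation of 34.5% is above the 15.4% of counting alone, so depth is not its only limit.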
